A study of Mus musculus with 6 samples.

Results

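Transcripts of 10 genes were followed in the retina of mice bred to delete Dicer1 in rod photoreceptors: 8 splicing factor genes whose human counterparts are mutated in retinitis pigmentosa (Prpf3, Prpf4, Prpf6, Prpf8, Prpf31, Snrnp200, Rp9 and Dhx38) and the 2 Musashi RNA-binding protein genes, Msi1 and Msi2. The members were chosen by gene symbol. All 10 were found among the 22731 symbols of the deposited RNA-seq table, and all 10 passed the filter of a mean of at least 1 RPKM (reads normalised to gene length and sequencing depth) that 12599 genes passed. The conditional knockout (cKO) mice were Dicerfl/fl, iCre75+ and the controls were Dicerfl/fl, iCre75- littermates, so both groups carried the floxed alleles on a mixed C57BL/6J - SJL background. The iCre75 transgene expresses Cre recombinase in rods, and the other retinal cells keep Dicer1. Each group had 3 libraries (cKO replicates 2, 3 and 4; control replicates 1, 2 and 3), and each library was made from pooled RNA of 4 mice at 4 weeks of age.

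The spliceosome receives its catalytic parts as the U4/U6.U5 tri-snRNP, a preassembled particle in which the U4 RNA holds the U6 RNA inactive until a helicase unwinds the pair. Every cell needs this machinery, yet dominant mutations in several of its proteins cause a disease that strikes photoreceptors in humans. Prpf3, Prpf4 and Prpf31 belong to the U4/U6 part of the particle and Prpf6, Prpf8 and Snrnp200 to the U5 part. Rp9 and Dhx38 are not stable subunits of the tri-snRNP, and the Musashi proteins are not spliceosome subunits. Musashi proteins bind RNA and promote the inclusion of exons used by photoreceptors. The values here are gene totals and do not show which exons were included.

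The libraries held between 12336426 (cKO replicate 4) and 32934557 (control replicate 3) reads in genes, recovered from the step size of the RPKM values. Dicer1, the targeted gene, had 8.52 ± 0.222 RPKM in the control group against 7.66 ± 0.525 RPKM in the cKO group (SD, n = 3 each; limma adjusted p = 0.931), with all 3 cKO values below the controls. A gene total is a weak check of the genotype, because it does not show which cells lost the gene. The reason for the small difference was not tested. All 8 rod markers were above 0 in every library, with summed levels of 21365 to 24783 RPKM in controls and 20180 to 22260 RPKM in cKO, and cone and Müller glia markers were present in all libraries. Lens markers, also all 6 above 0, summed to between 229 and 2349 RPKM in controls and between 130.1 and 1664 RPKM in cKO, and all 6 pigment epithelium markers were found, at 180 to 231 and 195 to 248 RPKM. Of the 3 red blood cell markers, 2 were at 0 in every library. The first principal component held 44.1% of the variance and set cKO replicate 4 (score 20.5) and control replicate 3 (12.9) apart from cKO replicate 2 (−17.5) and control replicate 2 (−9.84).

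Dicer1 cuts precursors into mature microRNAs, which recognise targets through a seed (bases 2 to 8) that pairs with the 3′ UTR. Mature sequences of 5 retinal microRNAs, from RefSeq (GRCm38.p6), are shown because the deleted gene encodes the enzyme that makes them, with the seed in capitals. They are miR-183, miR-96 and miR-182 of the sensory organ cluster, and miR-9 and let-7a.
miR-183-5p: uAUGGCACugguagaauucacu
miR-96-5p: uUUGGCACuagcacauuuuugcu
miR-182-5p: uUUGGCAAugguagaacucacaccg
miR-9-5p: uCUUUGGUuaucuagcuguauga
let-7a-5p: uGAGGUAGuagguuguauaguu
No 2 of these seeds are identical. The 7-base complements were searched on the sense strand of the longest annotated 3′ UTR of each member (GENCODE M21). It was the longest over all transcripts with an annotated coding sequence, so it need not belong to the main mRNA. For Prpf31 it had 2396 bases, where the longest transcript of the gene has 3144. The letters were GTGCCAT for miR-183, GTGCCAA for miR-96, TTGCCAA for miR-182, ACCAAAG for miR-9 and CTACCTC for let-7a, and 4 matches were found in 3 members. Each is printed with its flanks, the match in capitals.
Prpf4, miR-183-5p: gcactgttGTGCCATtaaaccct
Msi2, miR-183-5p: gaaggggtGTGCCATactacctt
Prpf4, let-7a-5p: atttaaccCTACCTCagtggtgc
Prpf31, let-7a-5p: cttctcttCTACCTCagtgttgc
These matches are common. Among 3′ UTRs of similar length in the tested genes, GTGCCAT occurred in 22.2% for Prpf4 and 31.5% for Msi2, and CTACCTC in 21% for Prpf4 and 15.4% for Prpf31. The 3′ UTR of Msi1 (1895 bases) held none of the 5. A match is a string of letters and was not tested as a site.

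Levels per length spanned a wide range among the 10 genes. They rest on gene model lengths recovered from the table, of which that of Prpf3 alone equals the length of a GENCODE M21 transcript of its gene. Msi1 was by far the highest, with 183 ± 29.4 RPKM in the control group and 229 ± 19.6 RPKM after the knockout (SD, n = 3 each), which put it at the 99th percentile of the tested genes by mean level. Prpf8 followed at 37.2 ± 0.844 and 37.5 ± 1.73 RPKM. Rp9, Msi2, Snrnp200, Prpf6, Dhx38 and Prpf31 lay between 19.0 and 29.2 RPKM in both groups, and most neighbours among these 6 overlapped in their ranges over libraries, the exception being Snrnp200 and Dhx38 in cKO. Prpf3 and Prpf4 were lowest, at 8.03 and 4.75 RPKM in controls against 7.08 and 4.49 RPKM in cKO. Their ranges overlapped neither each other nor those of the genes above them. Subunits of 1 particle thus had transcripts at unequal levels, Prpf4 at 0.128 ± 0.00840 and Snrnp200 at 0.658 ± 0.0214 of the Prpf8 value in control libraries.

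**Figure D1:**
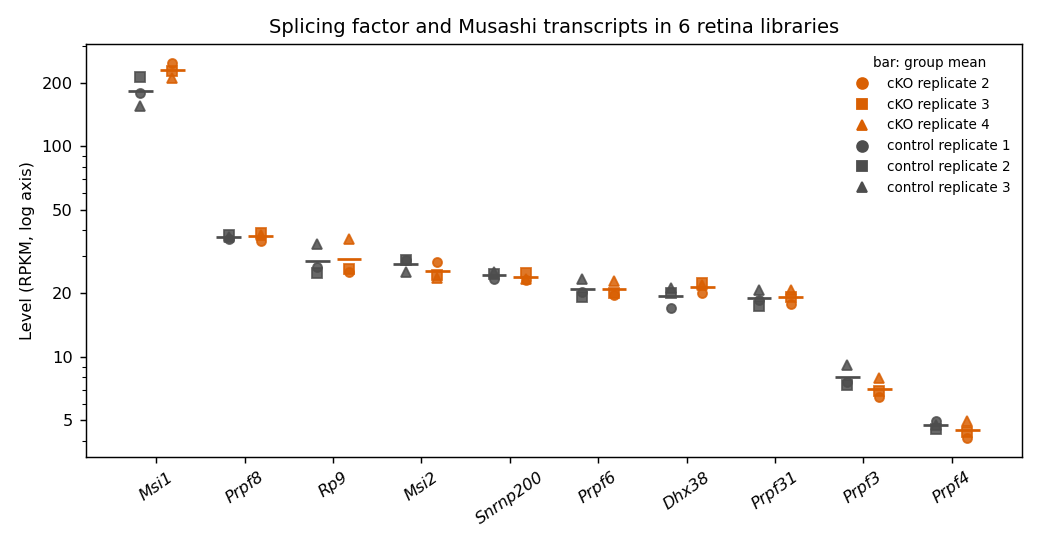
RPKM of the 10 genes on a log axis, ordered by mean level, with 1 point per library (grey, control; orange, cKO) and a bar at each group mean. Msi1 sits above all others and Prpf4 lowest, and the orange and grey points of each gene overlap.

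None of the 10 genes passed between the groups at an adjusted p under 0.05 by limma, against 1 gene (Prm1, named after its value was seen) of 12599 over the whole table (0.00794%), and limma voom on the recovered reads also called none of the 10. At an unadjusted p under 0.05 there was 1 of the 10, Msi1, higher in cKO, against 5.71% of all tested genes (2.65% higher and 3.06% lower). In none of the 10 did the 3 cKO values lie wholly above or below the 3 control values, which was so for 11.7% of all tested genes (5.91% higher and 5.78% lower). The median log2 difference of the 10 genes was 0.00057, with 5 above and 5 below 0, and that of all tested genes was −0.0050. In whole retina, a lower value from fewer cells of a type and one from less RNA per cell cannot be told apart.

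**Figure D2:**
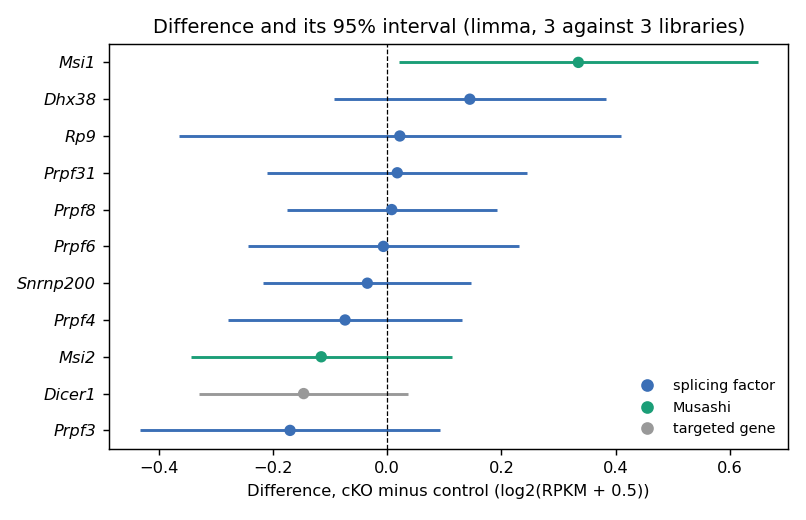
Difference of each gene between cKO and control on the log2(RPKM + 0.5) scale, with its 95% interval by limma, not adjusted for the number of genes. The interval of Msi1 alone lies to one side of 0, and Dicer1, the targeted gene, is shown for reference.

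Prpf8 is the scaffold that cradles the catalytic RNAs. It was at 36.4, 38.1 and 37.2 RPKM in control replicates 1, 2 and 3 and at 35.5, 38.9 and 38.0 RPKM in cKO replicates 2, 3 and 4, from 4301 to 11281 reads per library. The cKO values covered the control values on both sides. The log2 difference was 0.0079 ± 0.0796 (SE, limma adjusted p = 0.997), and the 95% interval of the ratio ran from 0.885 to 1.14. Snrnp200, the helicase that unwinds U4 from U6, was at 23.4, 24.7 and 25.4 RPKM in controls and 23.2, 25.0 and 23.5 RPKM in cKO. Here too the groups overlapped, with a ratio interval of 0.860 to 1.11 (limma adjusted p = 0.997). Prpf6, which bridges the U5 part to U4/U6, was at 20.3, 19.3 and 23.5 RPKM in controls and 19.8, 20.1 and 22.8 RPKM in cKO. Control replicate 3 and cKO replicate 4 were the high libraries of each group, and the group means were 21.0 and 20.9 RPKM (ratio interval 0.845 to 1.17).

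Among the U4/U6 proteins, Prpf31, which clamps the U4 RNA, was at 18.7, 17.5 and 20.9 RPKM in controls and 17.8, 19.2 and 20.8 RPKM in cKO. In humans, loss of 1 PRPF31 copy is enough to cause retinal degeneration in many carriers. Its groups overlapped almost fully (log2 difference 0.018 ± 0.0985 SE, limma adjusted p = 0.997), and its ratio interval was 0.864 to 1.19. Prpf31 shares exon bases with Gm15927, an annotated gene on the opposite strand, and reads without strand cannot be assigned between them. Prpf3 was at 7.59, 7.32 and 9.19 RPKM in controls and 6.42, 6.85 and 7.96 RPKM in cKO. The 2 lowest libraries were both cKO, but cKO replicate 4 lay inside the control range. Its log2 difference, −0.17 ± 0.11 (SE), did not pass (limma adjusted p = 0.965, exact two-sided permutation p = 0.3). It ran from −0.25 without cKO replicate 4 to −0.076 without control replicate 3. Prpf4, the partner of Prpf3 in the particle, was at 4.95, 4.54 and 4.75 RPKM in controls and 4.12, 4.39 and 4.97 RPKM in cKO, from 394 to 1009 reads per library. Its cKO replicate 4 exceeded every control, so the groups overlapped, and the log2 difference was −0.074 ± 0.0889 (SE, limma adjusted p = 0.997). It was −0.14 without cKO replicate 4 and −0.019 without cKO replicate 2.

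Rp9, a protein named for its retinitis pigmentosa locus that binds Prpf3, gave the widest interval of the splicing factors. Its levels were 26.6, 25.0 and 34.2 RPKM in controls and 25.3, 26.1 and 36.1 RPKM in cKO. Control replicate 3 and cKO replicate 4 stood well above the others of their group, so the spread within groups was far larger than the difference of the means, 28.6 ± 4.94 against 29.2 ± 6.03 RPKM (ratio interval 0.777 to 1.33). The gene model of Rp9 was 1141 bases, at percentile 10.9 of the tested genes by length, and over the 2310 tested genes under 1500 bases the same 2 libraries had the highest median deviations from the gene's mean, 0.18 in both on the log2 scale. With a per-library trend on length and GC content removed, the standard deviation of the Rp9 log2 values over the 6 libraries went from 0.23 to 0.15. Exons of Rp9 overlap those of 9530077C05Rik on the opposite strand, which was listed at 3.76 to 5.91 RPKM. Dhx38, the helicase that remodels the spliceosome between its catalytic steps, was at 17.0, 20.1 and 21.3 RPKM in controls and 20.1, 22.4 and 22.0 RPKM in cKO. Control replicates 1 and 2 lay below every cKO library, replicate 2 only just, and control replicate 3 lay among them. The log2 difference of 0.14 ± 0.10 (SE) did not pass (limma adjusted p = 0.971). It was 0.053 without control replicate 1, 0.21 without control replicate 3 and 0.068 with length and GC trends removed.

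Msi1 had the largest difference of the 10, although its groups overlapped. It was at 179, 214 and 155 RPKM in control replicates 1, 2 and 3 and at 249, 228 and 210.0 RPKM in cKO replicates 2, 3 and 4, from 4927 to 12918 reads. Control replicate 2 lay between cKO replicates 4 and 3, and the other 2 controls lay below every cKO library. The log2 difference was 0.33 ± 0.14 (SE), a ratio of 1.26 with a 95% interval of 1.01 to 1.57. It did not pass over all genes by limma (adjusted p = 0.871). The exact two-sided permutation p was 0.2, where 3 against 3 libraries allow no less than 0.1. The difference stayed above 0 without each library in turn, from 0.22 without control replicate 3 to 0.45 without control replicate 2. The recovered gene model of Msi1 was 1551 bases, where its longest GENCODE M21 transcript is 3133 bases. The GC content of that transcript, 57.9%, was higher than that of 88.8% of tested genes, each taken from its longest transcript. The GC trend used these values, whereas the length trend used the recovered lengths. For Msi1, removing both trends left a log2 difference of 0.30 ± 0.15 (SE). It did not narrow the spread of Msi1 over the libraries (standard deviation 0.25 before and 0.28 after).

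Msi2, the paralog with a long 3′ UTR, was at 28.7, 28.7 and 25.3 RPKM in controls and 28.1, 24.6 and 23.7 RPKM in cKO. The lowest 2 values were cKO libraries and the highest 2 were controls, with overlap in between. The log2 difference was −0.12 ± 0.0987 (SE, limma adjusted p = 0.984, ratio interval 0.788 to 1.08). It was −0.19 without cKO replicate 2, −0.067 without cKO replicate 4 and −0.046 with length and GC trends removed. Within a library, where scaling cancels, the ratio of Msi2 to Msi1 was 0.161, 0.135 and 0.163 in controls and 0.113, 0.108 and 0.113 in cKO. All 3 cKO ratios lay below the 3 control ratios, with means of 0.111 ± 0.00285 and 0.153 ± 0.0159 (SD, n = 3 each). The log2 difference of this ratio was −0.45, and its exact two-sided permutation p of 0.1 is the smallest that this design allows, so the test could not pass 0.05. The separation depended on the processing. With a per-library trend on gene length removed the difference was −0.44 but the groups overlapped (exact permutation p = 0.2), and with length and GC trends removed it was −0.35 and the cKO ratios lay below all control ratios. Summed bipolar cell markers (all 5 above 0 in every library) also separated the groups, at 224 to 250 RPKM in controls against 266 to 273 RPKM in cKO, and their part in the ratio was not tested.

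**Figure D3:**
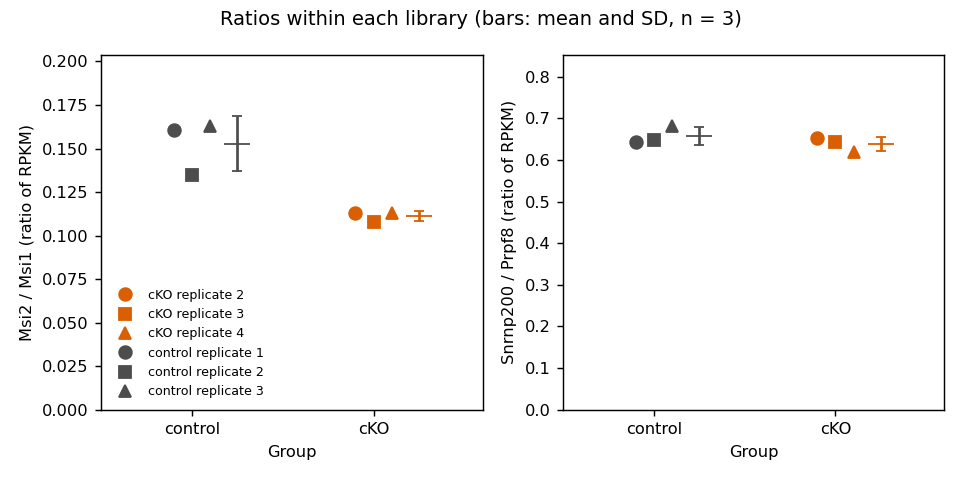
Ratio of Msi2 to Msi1 (left) and of Snrnp200 to Prpf8 (right) within each library, 1 point per library, with the group mean and SD beside them. The 3 cKO ratios of the Musashi pair sit at 0.108 to 0.113, below the control ratios of 0.135 to 0.163, whereas the ratio of the 2 U5 proteins overlaps between the groups.

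Levels relative to Prpf8 in the same library, taken from the RPKM values as deposited, gave no separation for any of the other 9 genes. The Snrnp200 ratio was 0.642, 0.649 and 0.682 in controls and 0.654, 0.642 and 0.619 in cKO. The Msi1 ratio was 4.91, 5.61 and 4.17 in controls and 7.01, 5.86 and 5.53 in cKO, so that cKO replicate 4 lay just below control replicate 2. Over the 9 ratios the exact two-sided permutation p lay between 0.2 and 1, and Benjamini-Hochberg adjusted values between 0.6 and 1. With the length trend removed, the Prpf3 ratio was lower in every cKO library than in any control (log2 difference −0.22, exact permutation p = 0.1 before adjustment), and it was −0.17 with the same p when length and GC trends were removed.

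The factors also differed in how they varied over the 6 libraries. The measures below take all 6 together, so any difference between the groups is part of them. Prpf8 and Snrnp200 had standard deviations of 0.047 and 0.054 over the 6 libraries on the log2(RPKM + 0.5) scale, against 0.23 for Rp9 and 0.25 for Msi1. With length and GC trends removed these values were 0.093 for Prpf8, 0.087 for Snrnp200, 0.15 for Rp9 and 0.28 for Msi1, so the contrast with Rp9 was smaller. Prpf6 and Prpf31 tracked each other most closely, with a root mean square difference of 0.030 between their centred log2 values, against a median of 0.13 between Prpf6 and the other tested genes, although Prpf31 ranked only 30 of 12598 by nearness to Prpf6. Prpf3, Prpf6, Prpf31 and Rp9 were all highest in control replicate 3 and cKO replicate 4 within their groups. Msi1 was lowest in those same libraries within each group. The tested genes nearest to Prpf8 by root mean square difference were Maml3 (0.015) and Mus81 (0.019). Those nearest to Snrnp200 were Nt5dc2 (0.017) and Cdh8 (0.019). Those nearest to Msi1 were Sema6c (0.037) and Pitpnm2 (0.048), over 6 libraries in each case. The log2 difference between cKO and control was 0.33 for Msi1, 0.34 for Sema6c and 0.30 for Pitpnm2, and it is part of this nearness.

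**Figure D4:**
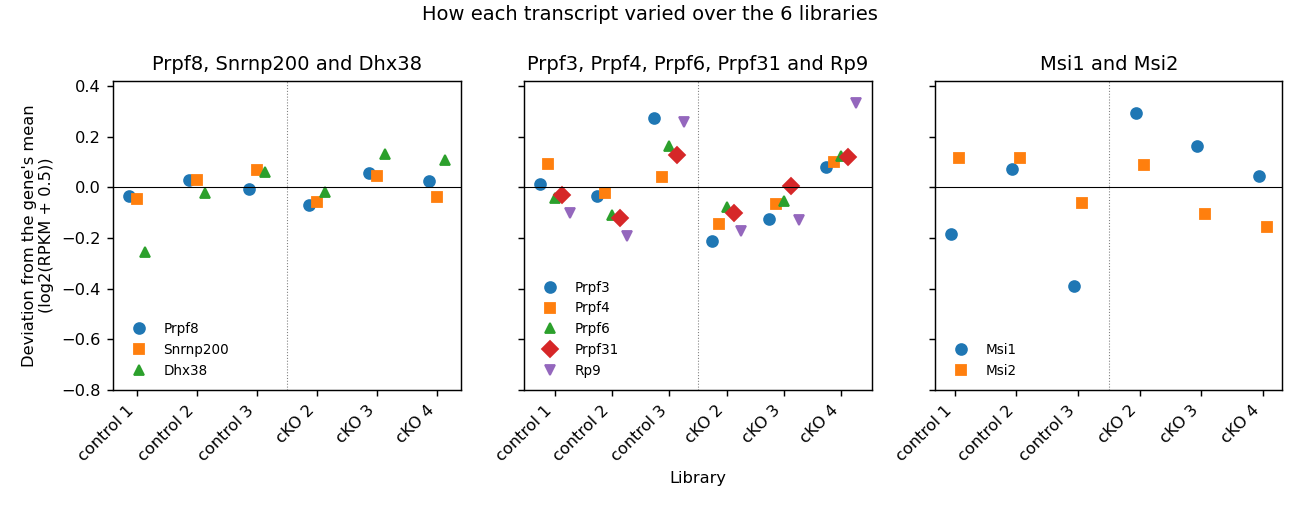
Deviation of each gene from its own mean in the 6 libraries on the log2(RPKM + 0.5) scale, controls left of the dotted line and cKO right of it. Prpf8 and Snrnp200 stay close to 0 (farthest −0.070 and 0.069), Rp9 is high in control replicate 3 and cKO replicate 4, and Msi1 is lowest in control replicate 3.

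Other proteins of the splicing machinery gave no call either. Of the 19 genes listed as partners of the tri-snRNP, not all of them its subunits, 16 were tested. None passed by limma or had an unadjusted p under 0.05 (median log2 difference −0.041). Eftud2, the GTPase that regulates the particle with Prpf8, had means of 24.9 and 24.1 RPKM in controls and cKO, close to the level of Snrnp200. Lsm4, a ring protein of the U6 RNA and the highest of the list, was at 120 ± 23.0 and 119 ± 15.5 RPKM, and Lsm7, with the smallest p, was at 4.60 ± 1.35 and 6.11 ± 2.66 RPKM (limma adjusted p = 0.984). Lsm7 rested on 51 to 115 reads per library. The common Sm core (7 tested) held Snrpb at 143 RPKM and 144 RPKM and Snrpg at 7.59 ± 2.62 and 5.93 ± 1.00 RPKM, and reads of such short genes may be shared with pseudogene copies. Among 20 U1 and U2 snRNP proteins, Snrnp70, which binds the U1 RNA, was at 170.0 ± 6.23 and 196 ± 32.9 RPKM. U2af2, which reads the 3′ splice site, was at 27.96 ± 4.43 and 32.7 ± 3.03 RPKM (limma adjusted p = 0.935). Among 24 activation and catalytic factors, Prpf19 was at 40.8 ± 5.24 and 43.9 ± 4.31 RPKM and Bud31 at 18.8 ± 2.76 and 15.9 ± 3.82 RPKM (limma adjusted p = 0.971). None of these 4 lists had a gene with an unadjusted p under 0.05 or a gene whose groups did not overlap, against 5.71% and 11.7% of all tested genes, and limma voom called none.

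Regulators that set tissue patterns of splicing, the class to which the Musashi genes belong, also gave no call. Of 26 tested, 0 had an adjusted p under 0.05 by limma or by limma voom, and 3 had an unadjusted p under 0.05, all higher in cKO, against 2.65% of tested genes in that direction. The groups did not overlap for 7 of the 26, or 26.9%, against 11.7% of all tested genes, with 5 above (Rbfox1, Srrm4, Celf1, Celf3 and Celf5) and 2 below (Rod1 and Mbnl1). Celf3, a neuronal CELF protein with the smallest p, was at 53.7, 58.2 and 53.6 RPKM in controls and 65.4, 71.9 and 70.6 RPKM in cKO. All 3 cKO values lay above the controls (log2 difference 0.33 ± 0.086 SE, limma adjusted p = 0.701). The other 2, named after their values were seen, were Celf5 at 7.76 ± 0.475 and 9.51 ± 0.669 RPKM and Srrm4, a regulator of neuronal microexons, at 9.60 ± 0.741 and 11.4 ± 0.785 RPKM (limma adjusted p = 0.848 for both). Khdrbs3, the highest of this list, had 87.6 ± 10.3 and 82.1 ± 14.5 RPKM. The bipolar cell marker sums given above were higher in cKO without overlap, and their part in these values was not tested.

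For 10 genes known for a splice form of their own in the retina or photoreceptors, the gene totals gave no call and none had an unadjusted p under 0.05, against 5.71% of all tested genes (median log2 difference −0.013). Slc17a7, the synaptic glutamate transporter, was at 684, 842 and 664 RPKM in controls and 926, 937 and 684 RPKM in cKO. Impdh1, a nucleotide synthesis enzyme, was at 364, 395 and 307 RPKM in controls and 442, 460 and 336 RPKM in cKO (limma adjusted p = 0.972). In both genes, as in Msi1, control replicate 3 and cKO replicate 4 were the lowest of their groups, and the groups overlapped. The cilium genes Ttc8 (41.0 and 39.9 RPKM) and Cep290 (5.10 and 5.11 RPKM) had group means close to each other, and exon use was not analysed here.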

How the data were processed

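The authors deposited RPKM values for each symbol in every library, as the file header labels them. The submitters' processing notes name GSNAP, HTSeq and mm9. For the annotation and the length model, the sources used here give nothing. Per the labels' protocols, poly(A) RNA was primed with random primers and the second strand carried no strand mark. The 6 columns were grouped by the sample titles.

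Whole reads were recovered from the steps of the RPKM values. Single-transcript genes of GENCODE M21 set the depth, and 19138 of 19140 genes above 0 came out on whole reads. Whether cKO replicate 4 was counted on another read unit cannot be seen. RPKM values were tested with limma 3.58.1 (R 4.3.3) on log2(RPKM + 0.5), with a variance trend, no covariate and Benjamini-Hochberg adjustment over the 12599 genes that averaged 1 RPKM or more. The threshold was 0.05, and differences are on that log2 scale, which understates the change of low genes. Scripts were tested on simulated data. Libraries are pools, so p-values measure the spread between pools, and pairs within a group differed by more than sampling noise (chi-square per degree of freedom 11.2 to 36.2). The members and lists were chosen with earlier results of these data known. Named besides the members are Dicer1, the most abundant gene and the one with the smallest p of each list, and the 2 nearest profiles to Prpf8, Snrnp200 and Msi1. Eftud2, Ttc8, Cep290 and the regulators whose groups did not overlap were named after their values were seen. Of the listed genes, Aar2, Lsm8 and Sf3b14 were not found by symbol. The reference annotation is of another build (GRCm38), so no coordinates are given. Alternatives were other pseudocounts, filters, scalings and tests, libraries left out, and the replicate numbers as a block.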

Additional observations from a re-analysis of the deposited data

How the results depend on the processing

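No member passed under any of the 18 alternatives, and Prpf3, Prpf4, Dhx38, Msi1 and Msi2 kept their direction in all of those run for them. Not all of these could change a direction. The filters and the variance trend leave a difference as it is, and the replicate block gives the same difference as the unpaired run. The number of genes called higher over the table, 1 in the test as set out, was 2 with a mean of at least 5 RPKM, without the variance trend and with limma voom, 3 with median-of-ratios scaling or the length trend removed, and 4 with length and GC trends removed. The number called lower, 0 as set out, was 8 with no filter and 1 with limma voom, with length and GC trends removed and with the outer pair (cKO 4 and control 3) left out. Leaving out the outer pair and removing length and GC trends together were chosen after seeing the data.

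Members whose groups did not overlap numbered 1 with median-of-ratios scaling (Dhx38; 11.3% of tested genes there), 0 to 3 without each library in turn (15.2% to 29.5%), 3 in replicates 2 and 3 alone (35.3% of tested genes there) and 5 without the outer pair (41.5%). Scaling moved the libraries by −0.051 to 0.048 on the log2 scale.

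Differences near 0 changed sign, and the cause was not tested. With limma voom these were Prpf8 (−0.011), Prpf31 (−0.0055), Rp9 (−0.021), Snrpb (−0.021) and Mus81 (−0.014). With the length trend removed they were Lsm4 (0.022), Maml3 (0.0016) and the Prpf31 to Prpf8 ratio (−0.030). With length and GC trends removed they were Mus81 (−0.026), Cdh8 (0.0094) and the Prpf31 to Prpf8 ratio (−0.0087). Without the outer pair they were Prpf6 (0.0091), Prpf8 (−0.0032), Snrnp200 (0.0021), Rp9 (−0.0048), Lsm4 (0.064), Snrpb (−0.010), Mus81 (−0.018), Nt5dc2 (0.021), Cdh8 (0.013) and the ratios to Prpf8 of Prpf6 (0.013), Snrnp200 (0.0054) and Rp9 (−0.0017).

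Without 1 library the difference ran from −0.070 to 0.073 for Prpf6, −0.019 to 0.045 for Prpf8, −0.039 to 0.085 for Prpf31, −0.14 to 0.16 for Rp9, −0.088 to 0.15 for Lsm4, −0.23 to 0.014 for Khdrbs3, −0.041 to 0.018 for Maml3, −0.068 to 0.0050 for Nt5dc2, −0.020 to 0.048 for Mus81 and −0.11 to 0.11 for Snrpb. The ratios to Prpf8 ran from −0.090 to 0.067 for Prpf6, −0.064 to 0.080 for Prpf31 and −0.14 to 0.15 for Rp9.

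The titles share replicate numbers 2 and 3 only. Same-numbered samples deviated together for number 2 (r = 0.465 across genes) but not for number 3 (−0.052). Whether same-numbered samples were paired cannot be told from these values. The replicate block on these 4 libraries, with 1 residual degree of freedom, called 86 genes higher and 106 lower, no member, and 1 activation factor, Bud31 (−0.41 on the log2 scale, limma adjusted p = 0.0356), and it also called Sema6c (0.44, adjusted p = 0.0379). Unpaired, the same 4 libraries gave 1 gene higher and 0 lower, with an adjusted p of 0.879 for both Bud31 and Sema6c. In the same 4 libraries, with or without the block, the difference was −0.019 for Prpf8, −0.050 for Prpf31, −0.18 for Rp9, −0.15 for Lsm7, −0.094 for Snrpb and −0.027 for Mus81, and the ratio to Prpf8 −0.032 for Prpf31 and −0.17 for Rp9.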
